A study of Mus musculus with 24 samples.

Results

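The genes described here encode voltage-gated calcium, sodium and potassium channels, the other potassium channels and the hyperpolarisation-activated HCN channels, with their auxiliary subunits, as measured in hearts of Ppara knockout (KO) and wild-type (WT) mice. A gene was a member if its symbol began with Kcn, Cacn, Scn plus a number and a or b, or Hcn plus a number, and if the mean log2 intensity of its probe set over the 12 heart arrays was above 3.03. Kcnj3 and Cacna1c were left out by the rule. Of 18193 genes with a probe set of their own, 119 matched by name and 59 of these passed the level, which is the median intensity of the heart arrays. The other 60 matching genes had heart means of 2.18 to 3.01. The rule therefore used heart intensity averaged over all groups, and not the difference between genotypes. One member, Kcnq1ot1, is a noncoding RNA that shares the name stem and is no channel subunit.

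Heart muscle cells fire when sodium channels open, contract because calcium channels let calcium in, and recover because several potassium currents carry charge out again. Pore-forming alpha subunits make each channel, and smaller auxiliary subunits set how many channels reach the membrane and how fast they open. PPARalpha is a fatty-acid-sensing nuclear receptor best known for switching on genes of fatty acid oxidation in liver and heart.

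The study measured RNA from liver and heart of SV129 mice with Affymetrix arrays. There were 8 groups (2 tissues, 2 sexes, 2 genotypes), each with 3 pools of 4 animals, so 12 animals stood behind each sex and genotype. The WT mice had intact Ppara and the KO mice carried its knockout, and all were killed at about 10 to 12 weeks of age at zeitgeber hour 14. Heart pools 1 to 3 were male WT, 4 to 6 male KO, 7 to 9 female WT and 10 to 12 female KO. Whole organs were pooled, so fewer cells of a type and less RNA per cell cannot be told apart. The pools are the replicates, and 3 per group limit the precision.

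Ppara itself fell in KO hearts, from 6.91 to 5.65 in males and from 7.09 to 5.56 in females (limma adjusted p = 0.00131 and 0.000196). Markers of cardiac muscle lay between 12.64 and 12.74 in every heart pool, as mean log2 intensity over 10 genes. Male KO pool 4 stood apart: its Xist was 6.62, against at most 3.12 in the other male pools and at least 7.32 in the female pools, and its skeletal muscle markers (12 genes) averaged 4.85, against 3.45 to 3.78 in the other pools. Female KO pool 10 had 3.34 for the Y-linked Eif2s3y, a gene added to the label check after its values were seen, against at most 2.50 in the other female pools. For members and for Irx3, results are therefore also given without pools 4 and 10 where that changes a call. Calls of cell type marker genes were not repeated without these pools.

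Intensities compare one gene across arrays and do not rank different genes, since each probe set has its own response. With that limit, 10 members had heart means above 6, 19 lay between 3.53 and 6, and 30 lay within 0.5 of the level. The members nearest the level were Kcng1 (3.04), Cacna1b (3.04) and Cacna2d2 (3.05), and the nearest genes under it were Kcnq3 (3.01), Cacna2d4 (3.00) and Cacna1f (2.98). Several well-known heart genes were under the level, among them Cacna1h (2.89), Kcna4 (2.85), Scn4b (2.75) and Kcnj2 (2.65).

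**Figure D1:**
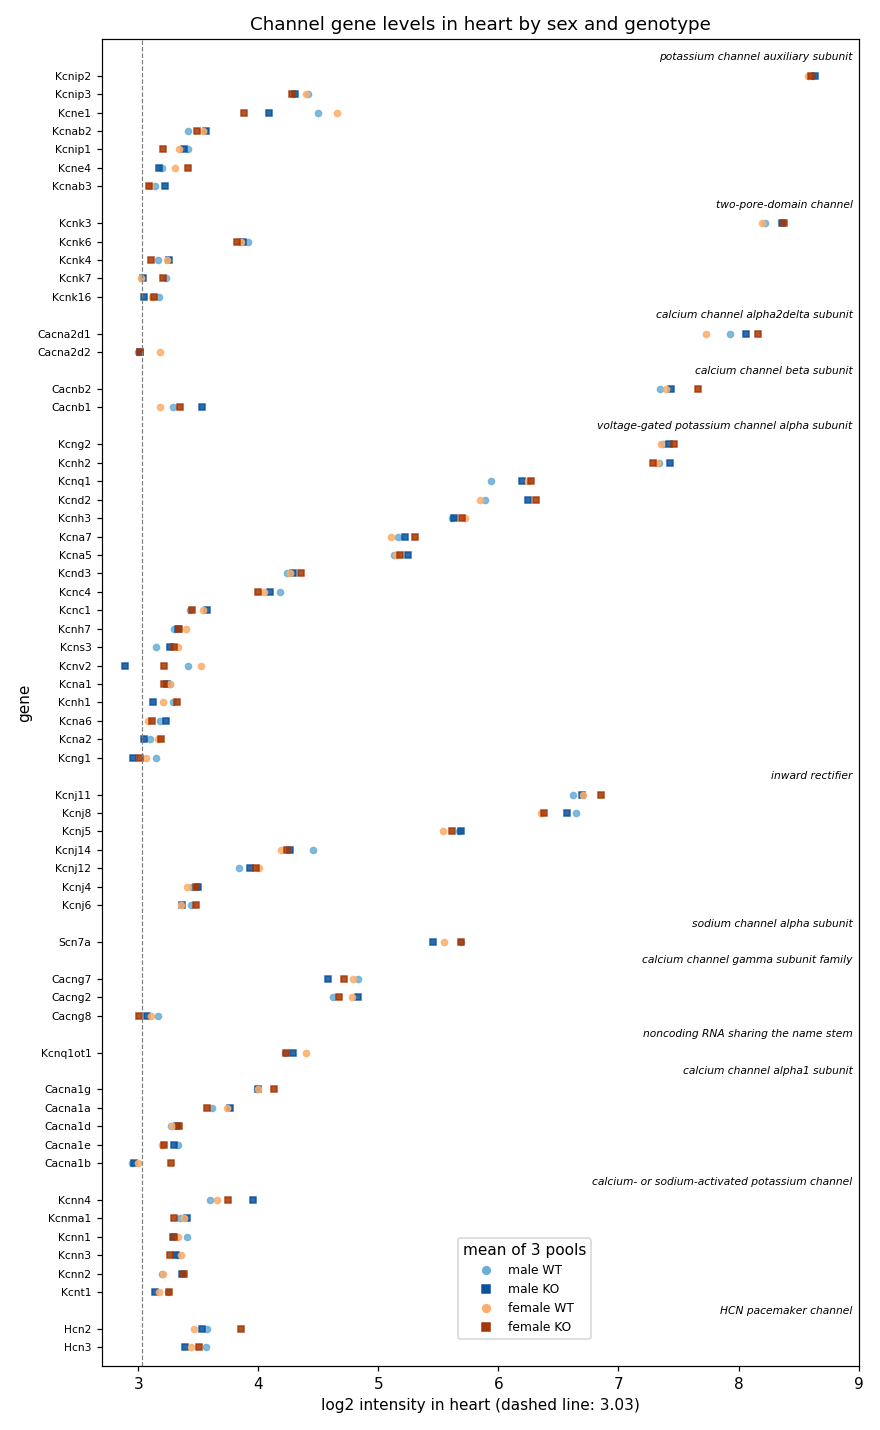
Mean log2 intensity in heart (horizontal axis) of the 59 members, grouped by subunit class; each symbol is the mean of 3 pools of one sex and genotype, and the dashed line is the level of 3.03. For most genes the 4 symbols lie close together, while Kcne1, Hcn2, Kcnv2, Cacna2d1 and Kcnd2 spread by sex or genotype.

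At a limma adjusted p under 0.05, 2 of the 59 members differed between KO and WT in female hearts and none passed in male hearts. Not passing does not show that a member was unchanged. Kcne1, the auxiliary subunit that slows the opening of the Kcnq1 potassium channel, fell in female KO hearts by 0.77 on the log2 scale. Hcn2, a pacemaker-current channel, rose there by 0.39. In limma with Benjamini-Hochberg adjustment over 18193 genes, 97 genes passed in female heart (0.533%), 22 higher (0.121%) and 75 lower (0.412%). Among genes above the level 0.836% passed, and among members 3.39%, 1 in each direction. In male heart 73 genes passed (0.401%, and 0.629% of genes above the level), with no member. At an unadjusted p under 0.05 there were 5 of 59 members in males (8.47%) and 7 in females (11.9%), against 6.58% and 6.85% of all genes. The median member difference was 0.02 in males and 0.03 in females, with 34 and 33 of the 59 members above 0, against 51.4% and 48% of all genes. The median size of a difference, without its sign, was 0.0899 and 0.0905 among members and 0.0755 and 0.0758 among all genes.

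The 95% interval lay within a 2-fold change either way for 59 of 59 members in males and 58 of 59 in females, Kcne1 being the exception. It lay within a 1.5-fold change for 55 of 59 in each sex, and for 17612 and 17549 of the 18193 genes in males and females. These bounds apply to the measured intensities, which near the array median can understate a change in RNA. Male and female differences had the same sign for 32 members. The sex by genotype test passed for none of 18193 genes (0%), and the smallest member adjusted p was 0.978 (limma). At an unadjusted p under 0.05 it named 4 members (6.78%, against 4.51% of all genes), Cacna2d1, Hcn2, Kcnk4 and Kcnk7. At the adjusted threshold no gene thus passed as differing in KO effect between the sexes. The larger number of calls in females was not itself tested.

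**Figure D2:**
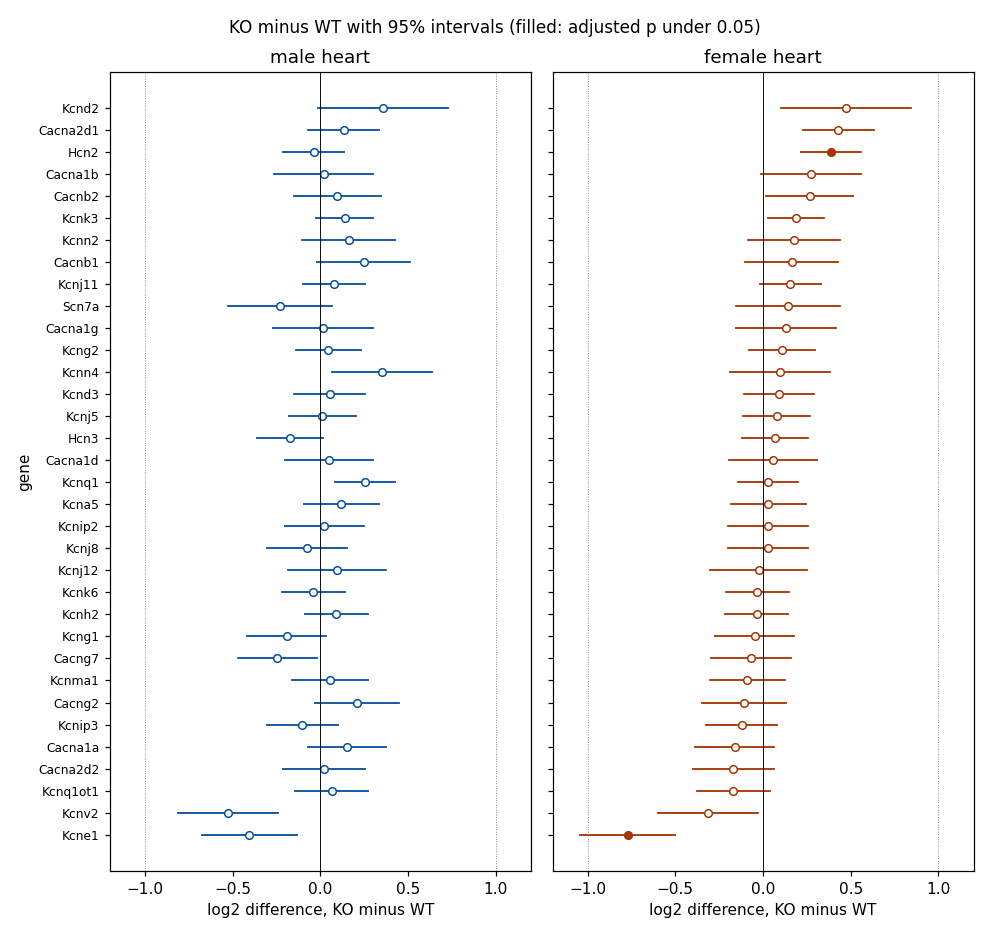
KO minus WT log2 difference (horizontal axis) with 95% limma intervals for named members in male (left) and female (right) hearts, 3 pools per group; filled points passed an adjusted p of 0.05. Only Hcn2 and Kcne1 in the female panel are filled, and in males Kcne1 lies at -0.41 and Hcn2 at -0.04.

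Kcne1 is the beta subunit that, with Kcnq1, forms the slow delayed rectifier current. Its log2 intensity in female WT pools 7, 8 and 9 was 4.48, 4.81 and 4.68, and in female KO pools 10, 11 and 12 it was 3.90, 3.67 and 4.08. In males the WT pools 1, 2 and 3 had 4.46, 4.57 and 4.46, and the KO pools 4, 5 and 6 had 4.06, 4.34 and 3.88. Every KO pool was below every WT pool of its sex. The female difference was -0.77 (SE 0.13, 95% interval -1.04 to -0.50, limma adjusted p = 0.00729), a 1.71-fold lower level. The male difference was -0.41 (95% interval -0.68 to -0.13) and did not pass (limma adjusted p = 0.411). The sex by genotype difference was -0.37 (95% interval -0.75 to 0.02, limma adjusted p = 0.978). Without female WT pool 8 the female difference was -0.70 and its limma adjusted p 0.0603, and without pools 4 and 10 it was -0.78 with 0.0611. A dimmer probe set of Kcne1, with a heart mean of 3.46, gave -0.26 in females and -0.07 in males, and neither passed when every probe set was tested.

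Kcnq1, the pore that Kcne1 joins, did not pass in either sex. Its male WT pools had 5.92, 5.92 and 5.97 and its male KO pools 6.28, 6.19 and 6.12, so the groups did not overlap. The male difference was 0.26 (95% interval 0.09 to 0.43, limma adjusted p = 0.411). Female WT pools had 6.28, 6.31 and 6.14 and female KO pools 6.31, 6.29 and 6.22, with a difference of 0.03. Male WT hearts were thus the low group. Kcnq1ot1, the noncoding RNA transcribed from within Kcnq1, differed by 0.06 in males and -0.17 in females.

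Hcn2 encodes a channel of the pacemaker current, which opens on hyperpolarisation and is regulated by cyclic AMP. Its female WT pools had 3.55, 3.45 and 3.40 and its female KO pools 3.77, 3.84 and 3.96. Its male WT pools had 3.56, 3.62 and 3.53 and its male KO pools 3.53, 3.56 and 3.50. The 3 female KO pools were above the other 9. The female difference was 0.39 (SE 0.08, 95% interval 0.22 to 0.56, limma adjusted p = 0.0422), 1.31-fold, and the male difference was -0.04 (95% interval -0.21 to 0.13). The sex by genotype difference was 0.43 (95% interval 0.19 to 0.67) with an adjusted p of 0.978 in limma. The female call was lost when any one of the 12 pools was left out, with limma adjusted p up to 0.238, and without pools 4 and 10 (0.103). Hcn3, the other measured HCN gene, differed by -0.18 in males and 0.07 in females and did not pass.

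The start region of Hcn2 is shown because this is the called gene with an entry in the RefSeq promoter table. It lies on the + strand at chr10:79716384-79716633 in GRCm38.p6, and capitals mark 2 matches to AGGTCA, the core recognition letters of many nuclear receptors, both read on the opposite strand.
Hcn2: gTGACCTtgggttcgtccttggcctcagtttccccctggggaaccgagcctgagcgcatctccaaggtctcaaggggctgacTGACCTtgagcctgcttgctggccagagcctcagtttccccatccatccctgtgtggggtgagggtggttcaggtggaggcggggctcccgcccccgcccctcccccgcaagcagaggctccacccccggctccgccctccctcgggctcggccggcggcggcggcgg
Windows of 250 bases before to 50 after the start were found for 42 members, 54 windows in all. AGGTCA on either strand was in 3 of these 54 (5.56%), those of Cacng8, Hcn2 and Kcnh1, and in 16.3% of all 32851 windows. A direct repeat of AGGTCA with 1 letter of any kind between the copies, which contains that hexamer, was in 0 of the 54 and in 13 of all windows (0.0396%). A match describes the letters in the window and is no measured binding.

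Several cell type marker lists differed between genotypes in the same female hearts. Atrial markers (6 genes) averaged 9.09 to 9.25 in female WT pools and 8.64 to 8.97 in female KO pools. All 6 were lower, and 2 passed, Myl7 (-0.65) and Sln (-0.71), with limma adjusted p of 0.0126 and 0.0169. In males the same list ranged from 9.01 to 9.20 in WT and 9.12 to 9.35 in KO pools. Smooth muscle markers (6 genes) ranged from 6.44 to 6.60 in female WT and 6.11 to 6.34 in female KO pools, with no gene called. Skeletal muscle markers ranged from 3.45 to 3.49 in female WT and 3.59 to 3.71 in female KO pools, with 5 of 12 genes lower and a median difference of 0.03. Of these, Casq1 (1.51) and Mybpc2 (0.55) were called higher in females, and Casq1 was also called higher in males (1.58), each by limma. In males the skeletal muscle list ranged from 3.46 to 3.51 in WT and 3.71 to 4.85 in KO pools. Male KO pools 5 and 6 had 3.78 and 3.71. In males 0 of the 12 genes were lower, with a median difference of 0.58. Adipocyte markers (5 genes measured) ranged from 5.92 to 6.05 in female WT and 5.21 to 5.85 in female KO pools, with 4 of 5 lower and a median difference of -0.17. Among them Fabp4 was called higher (0.48, limma adjusted p = 0.042), while Adipoq differed by -1.52 and did not pass. Erythroid markers (2 genes measured) ranged from 5.91 to 6.11 in female WT and 5.50 to 5.78 in female KO pools, with no gene called. Cardiac muscle markers (10 genes) ranged from 12.66 to 12.67 in female WT and 12.71 to 12.74 in female KO pools. Of these 10 genes 1 was lower, the median difference was 0.05, and none was called. Neuron markers were low in all heart pools, at 3.11 to 3.25. Gapdh 3′ minus 5′ signal was 0.134 to 0.193 in female WT and 0.0834 to 0.122 in female KO pools. The part of these shifts in the Kcne1 and Hcn2 differences was not tested.

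**Figure D3:**
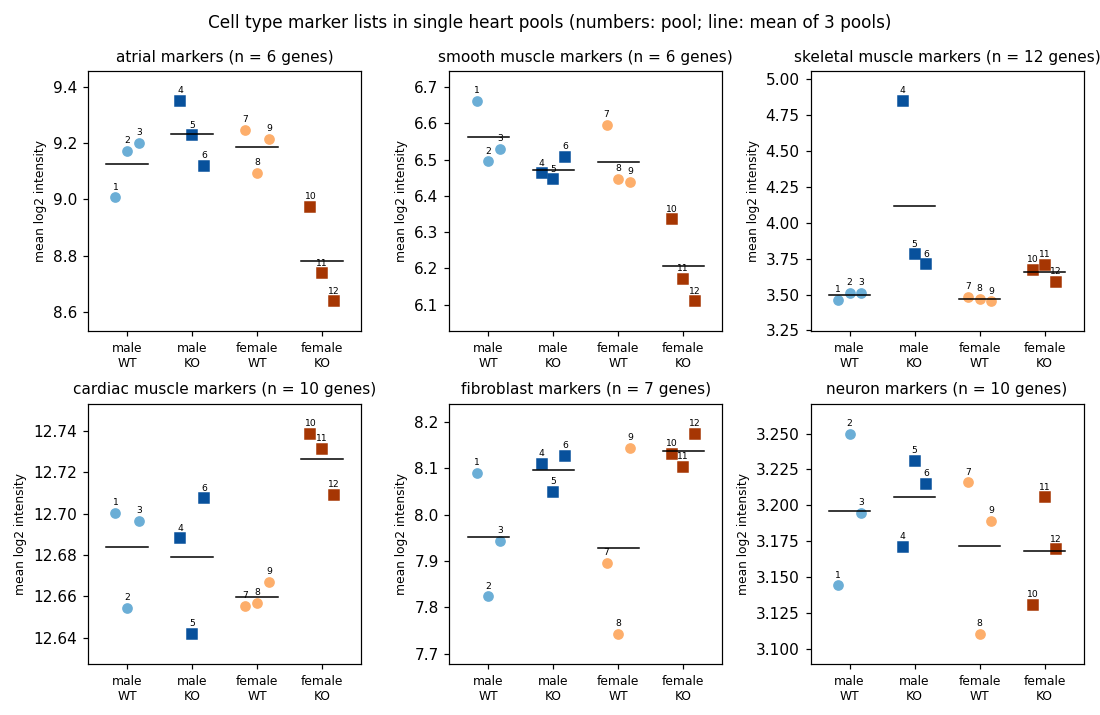
Mean log2 intensity (vertical axis) of 6 cell type marker lists in each heart pool, by sex and genotype; numbers are pools and lines are means of 3 pools. Atrial and smooth muscle markers are lowest in the female KO pools, and skeletal muscle markers are highest in male KO pool 4.

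Among the other calcium channel genes, none passed. Cacna2d1, the alpha2delta subunit that brings calcium channels to the membrane, came nearest. Its female WT pools had 7.59, 7.72 and 7.88 and its female KO pools 8.20, 8.13 and 8.15, which do not overlap. The female difference was 0.43 (95% interval 0.23 to 0.63, limma adjusted p = 0.066), and the male difference was 0.13. The call depended on the setting: leaving out pool 9 gave 0.50 with a limma adjusted p of 0.0434. Its other probe sets above the level gave 0.34 and 0.57 in females, and further ones gave 0.21 and -0.01. Cacnb2, the main cardiac beta subunit, differed by 0.27 in females and 0.10 in males. Another Cacnb2 probe set gave 0.33 in females and -0.04 in males, and neither passed when every probe set was tested. Cacnb1 differed by 0.16 in females and 0.25 in males. Cacna2d2, another alpha2delta subunit, differed by -0.17 and 0.02. Of the pore subunits, the T-type channel gene Cacna1g differed by 0.13 and 0.02, and Cacna1d by 0.06 and 0.05. Cacna1a differed by -0.16 and 0.15 and Cacna1b by 0.28 and 0.02 in females and males. The gamma family gene Cacng7 differed by -0.25 in males and -0.07 in females, and Cacng2 by 0.21 and -0.11.

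Of the 18 voltage-gated potassium alpha subunits, none passed in either sex. Their median difference was 0.05 in males (range -0.53 to 0.36) and 0.00 in females (range -0.32 to 0.47). Kcnv2, a silent subunit that modifies other Kv channels, was lowest. Its male WT pools had 3.74, 3.29 and 3.22 and its male KO pools 2.90, 2.92 and 2.85. In females the WT pools had 3.75, 3.37 and 3.46 and the KO pools 3.03, 3.26 and 3.34. KO pools lay under WT pools in both sexes, and the male KO pools lay under the level of 3.03. The differences were -0.53 (95% interval -0.81 to -0.24) and -0.32 (95% interval -0.60 to -0.03), with limma adjusted p of 0.165 and 0.652.

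Kcnd2 encodes Kv4.2, a pore of the fast transient outward current. Its female WT pools had 5.94, 5.52 and 6.07 and its female KO pools 6.22, 6.39 and 6.33, so KO was above WT throughout. Its male WT pools had 6.23, 5.55 and 5.89 and its male KO pools 6.55, 6.19 and 5.99, which overlap. The differences were 0.47 in females (95% interval 0.10 to 0.84) and 0.36 in males (95% interval -0.01 to 0.73), with limma adjusted p of 0.535 and 0.786. Its other probe sets above the level gave 0.50 and 0.53 in females and 0.32 and 0.24 in males. A further Kcnd2 probe set gave -0.15 in females and 0.02 in males. Kcnd3, the other Kv4 pore above the level, differed by 0.09 and 0.05. Kcnip2, the subunit that Kv4 channels need for a normal transient outward current, differed by 0.03 in females and 0.02 in males, each with a 95% interval of -0.20 to 0.25. Its other probe sets gave 0.12 and 0.17 in females and -0.01 and 0.12 in males. Kcna5 differed by 0.03 and 0.12, Kcnh2, the rapid delayed rectifier pore, by -0.04 and 0.09, and Kcng2 by 0.11 and 0.05, females first. Kcnip3, a further calcium-binding subunit, differed by -0.12 and -0.10 and the alpha subunit Kcng1 by -0.05 and -0.19.

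**Figure D4:**
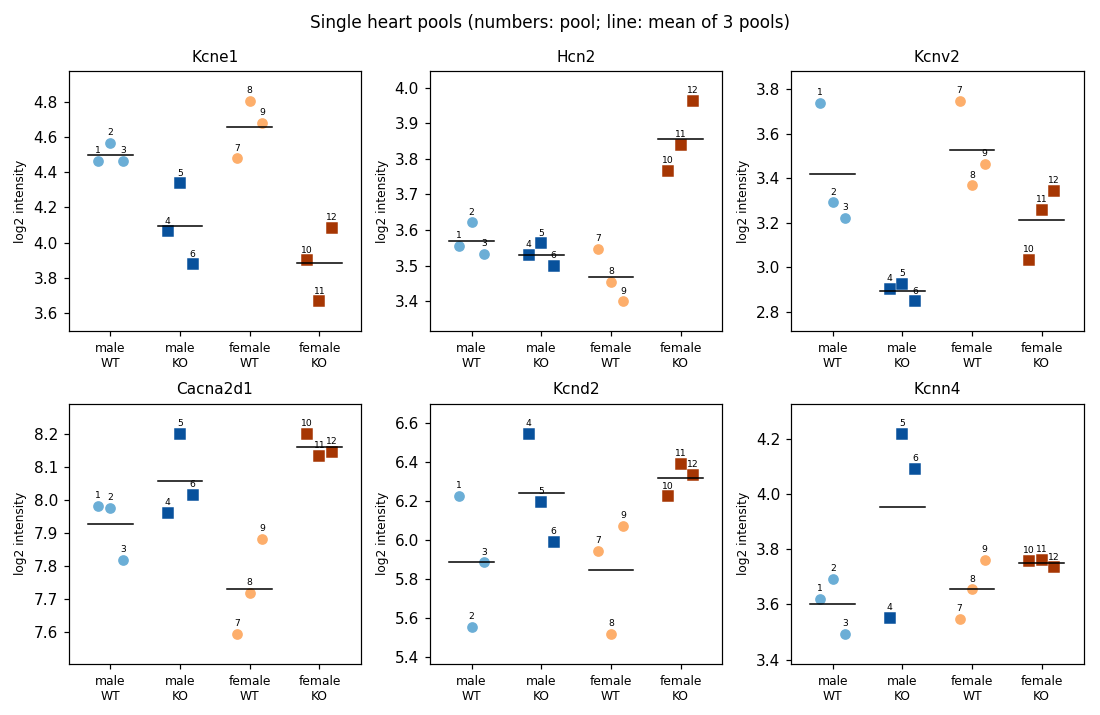
Log2 intensity (vertical axes, which do not start at 0) of Kcne1, Hcn2, Kcnv2, Cacna2d1, Kcnd2 and Kcnn4 in each of the 12 heart pools, by sex and genotype; numbers are pools and lines are means of 3 pools. Kcne1 is lower in KO than in WT pools of both sexes, and Hcn2 is high only in the 3 female KO pools.

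The inward rectifiers, which hold the resting potential or open when ATP falls, did not pass. Their 7 members had median differences of 0.01 in males (range -0.20 to 0.09) and 0.07 in females (range -0.02 to 0.16). Kcnj11, the pore of the ATP-sensitive channel in heart muscle, differed by 0.16 in females and 0.08 in males. Kcnj8, its counterpart in vessels, differed by 0.03 and -0.08, Kcnj5 by 0.08 and 0.01 and Kcnj12 by -0.02 and 0.09.

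Kcnk3, a background potassium channel of the tandem-pore family, did not overlap in either sex. Its female WT pools had 8.24, 8.19 and 8.15 and its female KO pools 8.38, 8.35 and 8.41. Its male WT pools had 8.25, 8.26 and 8.17 and its male KO pools 8.40, 8.39 and 8.29. The differences were 0.19 in females and 0.14 in males, and the female limma adjusted p was 0.622. Its other probe sets gave larger female differences, 0.42 and 0.32, with 0.15 and 0.12 in males. None of these passed when every probe set was tested. Kcnk6 of the same family differed by -0.03 and -0.04. Kcne1, Kcnv2 and Kcnk3 were the 3 members whose groups did not overlap and lay on the same side in both sexes (5.08%, against 1.75% of all genes). Over all members, groups did not overlap for 11 (18.6%) in females and 8 (13.6%) in males, against 12.1% and 11.4% of all genes.

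Among calcium- and sodium-activated potassium channels, Kcnn4, an intermediate-conductance channel also made by blood cells, had male KO values of 3.55, 4.22 and 4.09 in pools 4, 5 and 6. Its male WT pools had 3.62, 3.69 and 3.49. Pool 4 was within the WT range and the other KO pools were above it. The male difference was 0.35 (95% interval 0.07 to 0.64, limma adjusted p = 0.614), and without pool 4 it was 0.55 with a limma adjusted p of 0.0199. The female difference was 0.10. Another Kcnn4 probe set gave 0.16 in males and 0.09 in females, and neither passed when every probe set was tested. Macrophage markers averaged 5.39 to 5.55 in male WT and 5.62 to 6.13 in male KO pools. Their part in the Kcnn4 result was not tested. Kcnn2 differed by 0.16 in males and 0.18 in females, and Kcnma1 by 0.06 and -0.09. Scn7a, the one sodium channel gene above the level, differed by -0.23 in males and 0.14 in females.

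Sexes were also compared within each genotype. No member passed in WT hearts, where 5 genes in all passed (0.0275%), or in KO hearts, where 2 passed (0.011%), by limma. At an unadjusted p under 0.05 there were 4 of 59 members in each comparison, against 6.18% and 6.76% of all genes. Kcnq1 was 0.30 higher in female than in male WT hearts (limma adjusted p = 0.666). Hcn2 was 0.33 higher in female than in male KO hearts (limma adjusted p = 0.506).

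A list of 41 other genes of cardiac excitability, such as gap junction proteins, pumps and transcription factors, had 36 measured. In males 1 fell, Irx3, a transcription factor of the ventricular conduction system, from 4.97 to 4.14 (limma adjusted p = 0.0228), and none rose. The Irx3 call was lost without any one of pools 1, 3, 4, 5 and 6 (limma adjusted p 0.0683 to 0.152), the difference then being -0.84 to -0.69. It was also lost with the compared arrays alone and without pools 4 and 10 (limma adjusted p 0.193 and 0.148). In females none passed. The list's median difference was 0.00 in males and -0.03 in females. Of the sulfonylurea receptor subunits of ATP-sensitive channels, Abcc8 differed by 0.48 in males and 0.51 in females and Abcc9 by -0.18 and -0.09, and neither passed.

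In liver, whose arrays have a lower median intensity (2.45), 38 of the 59 members lay above that median. No member passed in male liver, where 110 genes passed (0.605%), or in female liver, where 148 passed (0.813%), by limma. At an unadjusted p under 0.05 there were 4 of 59 members in male and 1 in female liver, against 8.75% and 6.87% of all genes. Kcng2 came nearest, 0.31 higher in male KO liver (limma adjusted p = 0.143). In females 2 of 59 members, Kcnk3 and Cacnb2, had groups that did not overlap in either tissue and lay on opposite sides in heart and liver, as did 0.583% of all genes. Kcnn2, a small-conductance calcium-activated channel, had group means of 5.21 to 5.51 in liver. Kcne1 had means of 2.00 to 2.11 and Hcn2 of 2.24 to 2.41 in the 4 liver groups, under the liver median. Levels were not compared across tissues, because their arrays look normalized apart.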

How the data were processed

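RNA of 24 pools (12 heart, 12 liver) was measured on Affymetrix arrays. The deposited values are log2 intensities, made by the authors with RMA, per the submitters' processing notes. RMA version and genome build are not given in the sources used here. Of 45101 probe sets, 64 were controls, 34945 had 1 gene, 932 several and 9160 none in the platform annotation. Where a gene had several probe sets of its own, the brightest on average across the 24 arrays stood for it, giving 18193 genes. A cell-means model per tissue (12 arrays, 4 groups sharing one spread) was fitted with limma 3.58.1 in R 4.3.3, two-sided, with Benjamini-Hochberg adjustment over all genes and a threshold of 0.05; the script was tested on simulated data. Members and gene lists were chosen with earlier results of these data known, so their counts are descriptions.

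Members were named if they passed the threshold, were among the 4 largest differences either way in a sex, were among the 2 brightest of their class, belonged to a core set of heart channels or lay nearest the level. Kcnk4, Kcnk7, Kcnh1, Cacng8, Abcc8 and Abcc9 were named after their values were seen. Alternatives covered variance estimation, array weights, normalization, probe set choice, a filter on dim genes and leaving out pools. Promoter windows came from RefSeq (GRCm38.p6). Pools are separate groups of animals per the labels.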

Additional observations from a re-analysis of the deposited data

Results flagged for a closer look

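In female mice 2 of 59 members had differences of opposite sign in the 2 tissues, with every KO pool on one side of every WT pool in each. The same held for 0.583% of all genes, and neither member passed in limma in either tissue. Kcnk3 was higher in KO heart by 0.19 and differed by -0.24 in KO liver. Its liver signal was dim, with female means of 3.00 in WT and 2.76 in KO, against a liver median of 2.45. Cacnb2 was higher in KO heart by 0.27 and differed by -0.10 in KO liver, where its intensity was under the liver median and its difference turned to 0.013 with the mean of all probe sets. The difference between tissues was not tested.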

How the results depend on the processing

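Neither called member difference changed sign under any alternative. Among the reported differences put through the alternatives, signs changed only for ones that did not pass, of size 0.14 or less as reported. Those of Ppara, the cell type markers, Abcc8, Abcc9 and single other probe sets were not put through them. With one pool left out, the male heart differences that changed sign ranged as follows: Cacna1b -0.087 to 0.11, Cacna1d -0.053 to 0.17, Cacna1g -0.090 to 0.20, Cacna2d2 -0.081 to 0.11, Cacnb2 -0.0018 to 0.16, Kcnd3 -0.016 to 0.11, Kcnip2 -0.091 to 0.15, Kcnj12 -0.030 to 0.22, Kcnj5 -0.029 to 0.085 and Kcnma1 -0.0053 to 0.13. Those in female heart ranged as follows: Cacna1d -0.017 to 0.13, Kcna5 -0.080 to 0.12, Kcng1 -0.11 to 0.039, Kcnh2 -0.079 to 0.038, Kcnip2 -0.015 to 0.065, Kcnj12 -0.089 to 0.058, Kcnj8 -0.051 to 0.077, Kcnk6 -0.089 to 0.039 and Kcnq1 -0.024 to 0.063. Without pools 4 and 10 the male differences were -0.018 for Cacna2d2 and -0.028 for Kcnj5, and the female ones -0.080 for Kcna5, -0.023 for Kcnj8 and 0.039 for Kcnk6. The mean of all probe sets gave -0.16 for Kcnj5 in males, -0.11 for Cacna1d, 0.084 for Cacng7 and -0.0016 for Scn7a in females, and 0.013 for Cacnb2 in female liver. Array weights gave -0.017 for Cacna1g and quantile normalization -0.011 for Kcnj5, both in males. For 20 members several probe sets lay above the level. All of a member's such probe sets had the same sign for 8 members in males and 12 in females.

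The Kcne1 fall in female heart passed in 20 of 22 alternatives (-0.87 to -0.51, limma adjusted p 0.0025 to 0.0611), and the Hcn2 rise in 7 of 22 (0.34 to 0.43, limma adjusted p 0.0153 to 0.238). Cacna2d1 in females passed in 4 of 22 (limma adjusted p 0.00774 to 0.372). The number of members called in female heart was 3 with array weights and 3 among genes above the median level, each time Cacna2d1, Hcn2 and Kcne1. It was 2 with trend and robust variance, where Cacna2d1 took the place of Hcn2. It was 1 with the compared arrays alone, 1 when every probe set was tested (an alternative chosen after seeing the data), 0 without pools 4 and 10, and 0 to 2 with one pool left out. In male heart it was 1 without pools 4 and 10 and 0 to 1 with one pool left out, the member being Kcnn4. All genes called numbered 59 in female heart without pools 4 and 10, and 61 to 97 with one pool left out. Between the sexes, 0 to 5 genes passed in WT heart and 0 to 4 in KO heart with one pool left out. In liver the counts were 55 to 153 in males and 88 to 203 in females with one pool left out. With the compared arrays alone they were 169 in male and 55 in female liver, and with array weights 326 in female liver. No paired analysis was possible because the groups compared share no pool number. Many members lie near the array median, where dim signal limits what can be detected.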
